A study of Homo sapiens with 6 samples.

Results

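The 9 genes SHMT1, MTHFD1, MTHFD1L, MTHFD2, ALDH1L2, TYMS, MTR, MAT2A and AHCY encode enzymes of folate-dependent carbon transfer and of the methionine cycle. They are picked by gene name from the 78932 rows of the count table, and all 9 are found once each. T24 is a human bladder (urothelial) carcinoma cell line. The study compares T24 cells transfected with a non-targeting control siRNA (siNC) with T24 cells transfected with an siRNA against TRIM28 (siTRIM28), a corepressor that silences chromatin and also acts as a SUMO and ubiquitin ligase. Each group holds 3 libraries, which the labels call biological replicates, and both groups carry the same transfection. The time of collection and the siRNA used for these libraries are not given in the sources used here. All 6 libraries bear batch label 1 and are made from poly(A) RNA with a stranded kit.

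Folate enzymes move single carbons from serine onto a carrier, tetrahydrofolate, in both the cytosol and the mitochondria. The carbons are spent on thymidylate for DNA, on purine rings and, through methionine synthase, on remaking methionine from homocysteine. Methionine is then activated to S-adenosylmethionine, the methyl donor for DNA, histones and RNA. After the methyl group is given away, S-adenosylhomocysteine remains and is cleaved back to homocysteine. Proliferating tumour cells are known to use the mitochondrial branch, which sends formate to the cytosol.

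The libraries hold 12989362 to 13942383 counts in siNC and 11712623 to 14018052 in siTRIM28. TRIM28, the targeted gene, has 1419, 1393 and 1382 counts in siNC and 130, 96 and 109 in siTRIM28, a log2 fold change of -3.54 (SE 0.0723, adjusted p = 1.03e-10, edgeR). Within each group 2 libraries lie much closer to each other than to the third: siNC 1 and 2 (chi-square per degree of freedom 1.05, against 4.48 and 4.51 for the other pairs) and siTRIM28 2 and 3 (1.20, against 6.45 and 7.15). They are kept as separate samples, and the results that end when each close pair is summed to 1 sample are given with that value. A chi-square per degree of freedom near 1 is about what counting error alone gives. Whether each close pair comes from separate cultures cannot be told from the counts. The SD, SE and adjusted p values take all 3 libraries of a group as independent. Among defining markers, KRT8 and KRT18 have 1070 to 1680 counts per library, while EPCAM, CDH1 and KRT19 have at most 7. Of 9 urothelial markers 7 average under 10 counts, and UPK1B and KRT20 are at 0 in all 6 libraries, so the urothelial label of the line is not carried by these genes. Of the 3 urothelial markers with enough counts to be tested, 2 are called higher in siTRIM28 (edgeR), beside 21.3% of all tested genes. UPK1A has 17, 15 and 4 counts in siNC and 58, 38 and 34 in siTRIM28 (log2 fold change 1.94, adjusted p = 0.000548). TP63 has 4 to 9 counts in siNC and 10 to 15 in siTRIM28 (1.01, adjusted p = 0.04998). It reaches 10 counts only in siTRIM28, so it is tested only through the group where it is high, and its call is not read as a rise. FOXA1 is at -0.16 and is not called (adjusted p = 0.652). With too few counts to be tested, GATA3 goes from 10, 10 and 4 counts to 1, 4 and 4, and EPCAM from 5, 5 and 6 to 2, 3 and 3. Of 3 tested epithelial markers 2 are called higher, KRT7 (0.56, adjusted p = 0.0126) and KRT8 (0.14, adjusted p = 0.0354), and KRT18 is not (0.08, adjusted p = 0.210). UPK1A keeps its call in all settings in which it is tested. KRT7 loses it with DESeq2, KRT8 when any 1 library but siTRIM28 replicate 2 is left out and in 3 other settings, and TP63 without siNC replicate 2 or 3 or siTRIM28 replicate 2 or 3 and in 6 other settings (adjusted p up to 0.184). The part of these markers in the values of the 9 enzymes was not tested. Of 9 leukocyte, endothelial and muscle markers 7 average under 10 counts, with CD3E and CDH5 at 0. Their summed level is 347 to 349 CPM (counts divided by the scaled library total) in siNC and 342 to 367 in siTRIM28, nearly all of it CD68.

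Of the 9 enzymes, 8 have enough counts to be tested, and 4 of the 8 change at an adjusted p under 0.05 (edgeR quasi-likelihood test, Benjamini-Hochberg over 18474 genes). MAT2A, SHMT1 and MTHFD2 are higher in siTRIM28 and AHCY is lower. Over all tested genes 41.8% are called, 21.3% higher and 20.5% lower, so 4 of 8 is close to the background. The median log2 fold change of the 8 enzymes is 0.01, beside 0.02 for all tested genes. MAT2A is the only one of the 8 that is called with a log2 fold change of at least 1, which holds for 3.55% of all tested genes. In bulk RNA, a change in the level per cell cannot be told apart from a change in the share of cells that hold the transcript.

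**Figure D1:**
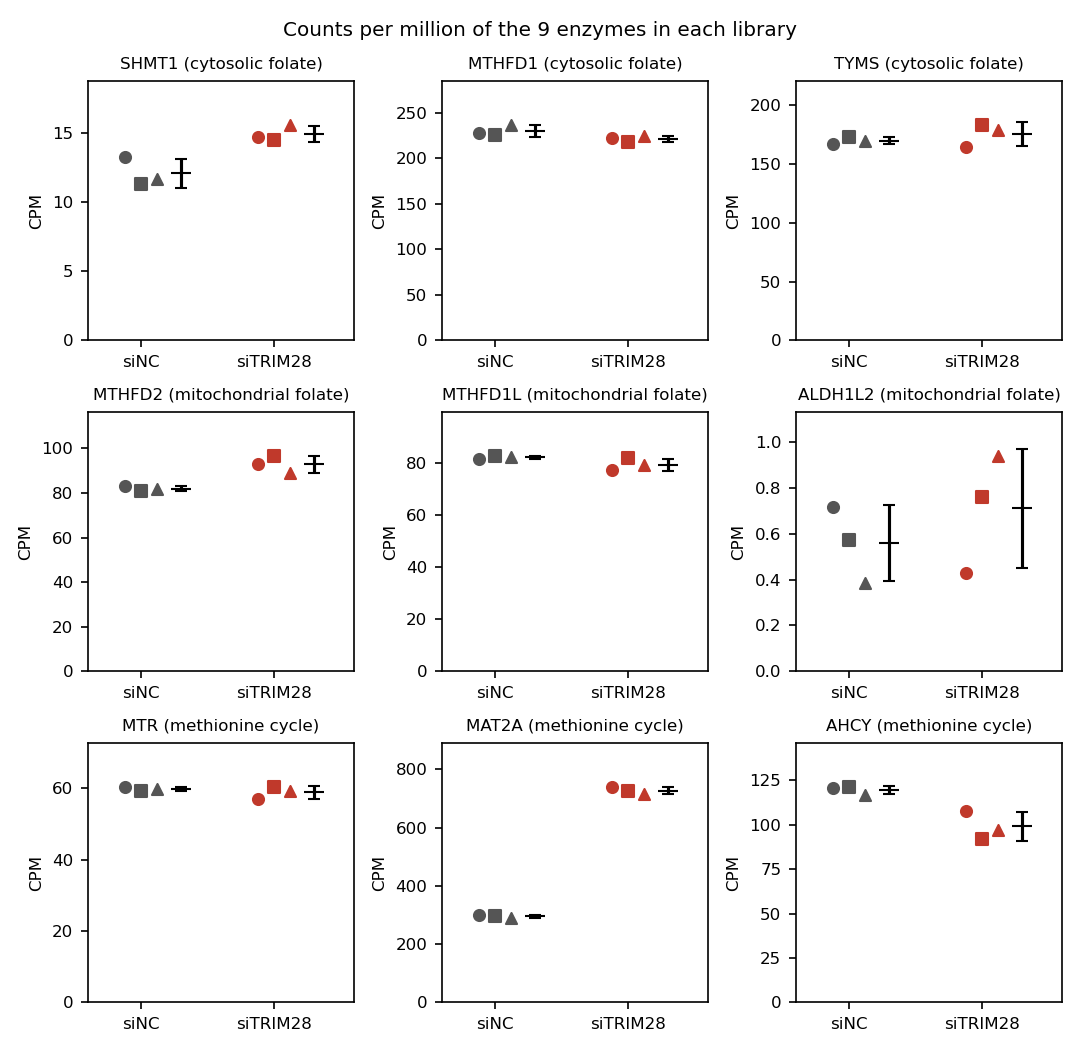
CPM (vertical axes, from 0) of the 9 enzymes in the 3 siNC (grey) and 3 siTRIM28 (red) libraries. Values are TMM-scaled, except for ALDH1L2, which is divided by the unscaled library total. Circles, squares and triangles are replicates 1, 2 and 3, and the black mark is the mean ± SD. MAT2A is between 291 and 300 CPM in siNC and between 715 and 740 in siTRIM28, and AHCY is lower in all 3 siTRIM28 libraries than in any siNC library.

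MAT2A encodes the catalytic subunit of methionine adenosyltransferase outside the liver, the enzyme that makes S-adenosylmethionine. It is ENSG00000168906 in the count table, on the plus strand at chr2:85539168-85545281 (GRCh38). Its transcript is known to carry hairpins in the 3′ untranslated region (UTR) that are bound and methylated by METTL16, an RNA adenosine methyltransferase, as part of the feedback by which S-adenosylmethionine sets the amount of MAT2A RNA. Shown are the 30-base stretches around the 6 copies of the motif in the 3′ UTR of MAT2A-201 (GENCODE v29, GRCh38, plus strand, 5′ to 3′). They are given because MAT2A has the largest change among the enzymes. Capitals mark TACAGAGAA or TACAGAAAA, the DNA letters of the methylated loop. Only the 3′ UTR is searched, and the 6 stretches run from chr2:85543802-85543831 for site 1 to chr2:85545112-85545141 for site 6.
site 1: tggcgtaggcTACAGAGAAgccttcaagct
site 2: tgtgatgtcaTACAGAGAAgtcacagggca
site 3: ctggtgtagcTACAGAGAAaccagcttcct
site 4: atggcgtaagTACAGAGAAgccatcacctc
site 5: caaggtgtccTACAGAAAAaccttgggtta
site 6: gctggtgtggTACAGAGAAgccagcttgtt

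The motif is searched on the transcribed strand only and was chosen after the change of MAT2A was known. Its letters are those of the hairpins of MAT2A itself. The place of MAT2A among the UTRs is therefore set by the choice of motif and is only a description. In the 1508 bases of the MAT2A 3′ UTR it occurs 6 times. A 3′ UTR is annotated for 12052 of the tested genes, of which 554 (4.60%) hold at least 1 copy, and MAT2A is the only one with 6 or more. Among UTRs from the length of MAT2A's up to 1.5 times that length, 82 of 1622 (5.06%) hold a copy. The other 7 tested enzymes hold none.

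MAT2A has 4168, 4084 and 3708 counts in siNC and 10367, 8581 and 8469 in siTRIM28. On the CPM scale this is 300, 295 and 291 against 740, 725 and 715, a mean of 295 ± 4.69 in siNC and 727 ± 12.7 in siTRIM28 (SD, n = 3 each). The 3 siTRIM28 libraries lie far above the 3 siNC libraries, and the spread inside each group is small. The fold is 2.46 (95% interval 2.33 to 2.60) and the log2 fold change 1.30 (SE 0.0364, adjusted p = 6.30e-10, edgeR). By log2 fold change MAT2A is at place 313 of 18474 tested genes, with 311 called genes above it. Among the 2352 genes that average at least 1000 counts, MAT2A is at place 4. The log2 fold change stays between 1.29 and 1.33 in all 16 alternative settings. The adjusted p values run from 2.00e-204 to 1.41e-05, the highest with the close pairs summed.

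GGCX, which encodes the vitamin K-dependent gamma-glutamyl carboxylase, lies on the opposite strand and shares the last 562 bases of MAT2A, the stretch that holds sites 3 to 6. GGCX has 556, 571 and 511 counts in siNC and 898, 712 and 735 in siTRIM28, a rise of 0.62 in log2 (40.4 ± 0.690 to 62.1 ± 2.00 CPM, adjusted p = 4.95e-06, edgeR). Whether the counting used the strand is not given in the sources used here, so reads of the 2 genes in the shared stretch may not be separated. The part of that stretch in the values of either gene was not tested.

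The genes whose log2 CPM follows that of MAT2A most closely over the 6 libraries are VMP1 (r = 0.9997), TTLL3 (r = 0.9996) and CARS1 (r = 0.9996), of 11339 genes averaging at least 50 counts. VMP1 encodes an endoplasmic reticulum protein of autophagosome formation, TTLL3 a tubulin glycylase and CARS1 the cytosolic cysteinyl-tRNA synthetase. Their log2 fold changes are 0.83, 0.99 and 0.93. The 6 libraries fall into 2 groups, so r mostly reflects the step between the groups and the small spread within them.

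METTL16 and MAT2B, the RNA methyltransferase of the hairpins and the regulatory subunit of the MAT2A enzyme, both go the other way. METTL16 has 381, 337 and 378 counts in siNC and 334, 245 and 273 in siTRIM28, a log2 fold change of -0.26 (adjusted p = 0.0270). That call is lost without siNC replicate 1, siNC replicate 3 or siTRIM28 replicate 2, with DESeq2 and with the close pairs summed (adjusted p up to 0.123). MAT2B is at 59.5 ± 2.42 CPM in siNC and 47.7 ± 0.704 in siTRIM28 (log2 fold change -0.32, adjusted p = 0.000793, edgeR) and keeps its call in all 16 settings. MAT2A and MAT2B, the parts of 1 enzyme, thus move in opposite directions at the RNA level.

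AHCY encodes S-adenosylhomocysteine hydrolase, which clears the by-product of methylation. It has 1672, 1681 and 1492 counts in siNC and 1508, 1091 and 1151 in siTRIM28, which is 120, 121 and 117 CPM against 108, 92.1 and 97.2. The groups do not overlap, though siTRIM28 replicate 1 lies between the siNC libraries and the other 2 siTRIM28 libraries. The means are 120 ± 2.32 CPM in siNC and 99.0 ± 7.93 in siTRIM28 (n = 3 each), which gives a log2 fold change of -0.27 (95% interval -0.40 to -0.14, adjusted p = 0.00277, edgeR). With the close pairs summed the value is -0.24 and the call is lost (adjusted p = 0.0578). Of all tested genes 52% have groups that do not overlap, and of the 8 enzymes 5 do.

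MTR encodes methionine synthase, the step where the folate and methionine cycles meet. It has 60.4, 59.2 and 59.8 CPM in siNC and 56.9, 60.2 and 59.2 in siTRIM28, and the groups overlap. The log2 fold change is -0.03 with a 95% interval of -0.14 to 0.09, which is a fold of 0.907 to 1.06. The small sign is not stable and turns to 0.0090 with upper-quartile scaling.

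**Figure D2:**
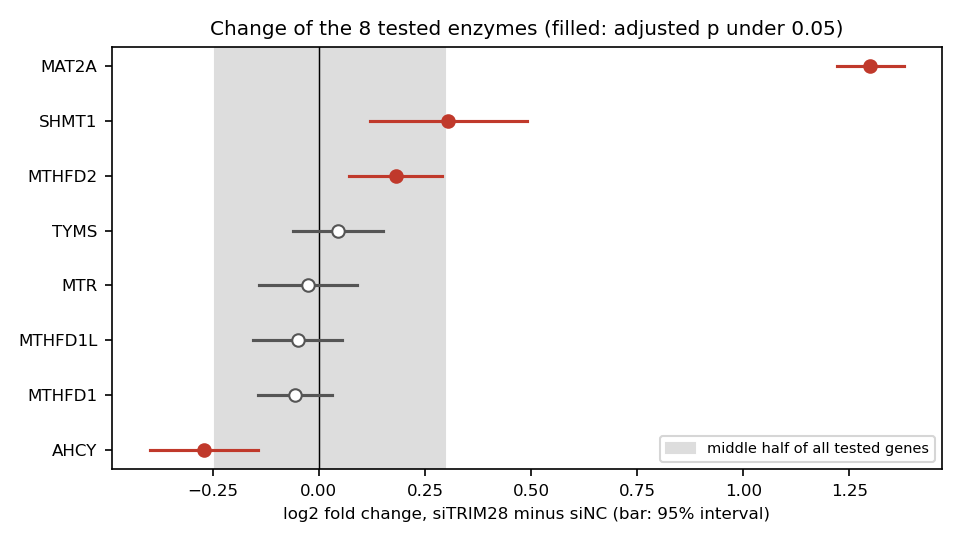
Log2 fold change, siTRIM28 minus siNC (horizontal axis), of the 8 tested enzymes with the 95% interval as a bar. Filled red points have an adjusted p under 0.05, open points do not, and the grey band spans the middle 50% of all tested genes. MAT2A at 1.30 lies far to the right of the band, and the other 7 lie between -0.27 and 0.30.

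Of the 3 mitochondrial enzymes among the 9, 1 is called, 1 is not and 1 has too few counts to be tested. MTHFD2, the dehydrogenase and cyclohydrolase of the mitochondrial branch, which is low in most adult tissues and high in many tumours, has 83.1, 80.8 and 81.8 CPM in siNC and 92.9, 96.7 and 88.8 in siTRIM28. All 3 siTRIM28 libraries are above all 3 siNC libraries. The means are 81.9 ± 1.14 CPM in siNC and 92.8 ± 3.93 in siTRIM28, a fold of 1.13 (1.05 to 1.22) and a log2 fold change of 0.18 (SE 0.0496, adjusted p = 0.0120, edgeR). The call is lost without siNC replicate 2 or siTRIM28 replicate 2, with DESeq2 and with the close pairs summed, where the adjusted p is at most 0.0742. A gene without a symbol, on the opposite strand, shares 3968 bases of genomic span with MTHFD2, introns included. It is not called (log2 fold change 0.04, adjusted p = 0.681, edgeR).

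MTHFD1L, the mitochondrial synthetase that releases formate, has 81.4, 82.6 and 82.1 CPM in siNC and 77.1, 81.7 and 78.9 in siTRIM28. The groups overlap at siTRIM28 replicate 2, and the log2 fold change is -0.05 (95% interval -0.16 to 0.05, adjusted p = 0.433, edgeR). ALDH1L2, which oxidises formyl-tetrahydrofolate in mitochondria to make NADPH, is nearly silent, with 10, 8 and 5 counts in siNC and 6, 9 and 11 in siTRIM28. It passes 10 counts in too few libraries to be tested. Fitted without the filter, its log2 fold change is 0.27 with an interval of -0.58 to 1.12, so a difference is not detectable at this depth. Most of the genomic span of ALDH1L2, introns included, also overlaps NOPCHAP1 on the opposite strand, which has 89 to 166 counts.

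In the cytosol, SHMT1 takes a carbon from serine, MTHFD1 carries the folate intermediates through 3 reactions, and TYMS spends the carbon on thymidylate. SHMT1 has 184, 157 and 149 counts in siNC and 206, 172 and 185 in siTRIM28, or 13.2, 11.3 and 11.7 CPM against 14.7, 14.5 and 15.6. The siTRIM28 libraries are all above the siNC libraries, of which siNC replicate 1 comes nearest to them. SHMT1 averages 12.1 ± 1.02 CPM in siNC and 15.0 ± 0.588 in siTRIM28, and its log2 fold change is 0.30 (95% interval 0.12 to 0.49, adjusted p = 0.0125, edgeR). It is the tested enzyme with the fewest counts, and its call is lost without siNC replicate 2, siNC replicate 3 or siTRIM28 replicate 3 and with DESeq2 (adjusted p 0.0593 to 0.0923).

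MTHFD1 has 227, 225 and 237 CPM in siNC and 222, 218 and 224 in siTRIM28. The groups just fail to overlap, yet the difference is small, with a log2 fold change of -0.06 (95% interval -0.14 to 0.03, adjusted p = 0.293, edgeR). TYMS, the target of fluorouracil, has 167, 173 and 170 CPM in siNC and 164, 183 and 178 in siTRIM28. The lowest and the highest of its 6 values are both siTRIM28 libraries, and the log2 fold change is 0.05 (95% interval -0.06 to 0.15, adjusted p = 0.483, edgeR). Without siTRIM28 replicate 1 it is 0.09 and is called (adjusted p = 0.0431). ENOSF1, on the opposite strand, shares 3261 bases of genomic span with TYMS, introns included. ENOSF1 differs by 0.18 on the log2 scale (adjusted p = 0.0177), a call lost without siNC replicate 1, siNC replicate 3 or siTRIM28 replicate 3, with DESeq2 and with the close pairs summed (adjusted p up to 0.0750). ZBTB25, on the opposite strand, shares 14352 bases of genomic span with MTHFD1, introns included. ZBTB25 has a log2 fold change of 0.28 (adjusted p = 0.0104), a call lost without siNC replicate 3 and with DESeq2 (adjusted p up to 0.0546).

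**Figure D3:**
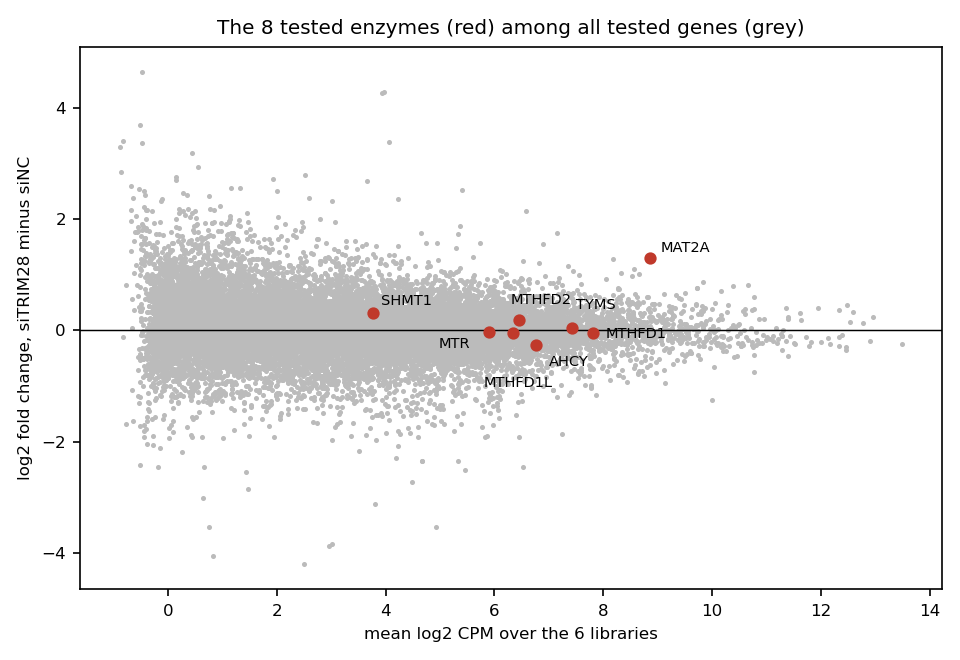
Mean log2 CPM over the 6 libraries (horizontal axis) against log2 fold change, siTRIM28 minus siNC (vertical axis), for the 18474 tested genes in grey and the 8 tested enzymes in red. MAT2A stands at the upper edge of the genes of its abundance, and the other 7 enzymes lie within the grey cloud near 0.

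The balance between compartments and steps is read from 4 ratios of counts within each library, in which depth cancels and only the change of a ratio is compared, since gene lengths differ. For the serine hydroxymethyltransferases, the mitochondrial SHMT2 has 4.07, 4.19 and 4.34 counts per count of the cytosolic SHMT1 in siNC and 2.14, 1.97 and 2.18 in siTRIM28. The ratio is lower by about the same amount in all 3 siTRIM28 libraries, and its mean log2 value goes from 2.07 ± 0.0461 to 1.06 ± 0.0803, a difference of -1.002. SHMT2 itself has 748, 658 and 646 counts in siNC and 440, 338 and 404 in siTRIM28 and falls by 0.69 on the log2 scale (adjusted p = 2.49e-05, edgeR), a call kept in all 16 settings. The log2 fold change of SHMT1 (0.30) adds to that of SHMT2 in this ratio, and its call is the less firm of the pair. A gene without a symbol, on the opposite strand, shares 626 bases of genomic span with SHMT2, introns included. It has 48, 45 and 39 counts in siNC and 32, 24 and 21 in siTRIM28 (log2 fold change -0.67, adjusted p = 0.0118, edgeR). The part of the shared stretch in the values of SHMT2 was not tested.

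The ratio of MAT2A to AHCY goes from 2.49, 2.43 and 2.49 to 6.87, 7.87 and 7.36, a log2 difference of 1.57. MTHFD2 to MTHFD1, which sets the same pair of reactions in mitochondria against the cytosol, goes from 0.366, 0.359 and 0.345 to 0.419, 0.444 and 0.397, a log2 difference of 0.24. MTHFD1L to MTHFD1, the formate step in both compartments, differs by 0.0051 with overlapping groups (two-sided exact permutation p = 0.9). The other 3 ratios do not overlap between groups and reach an exact permutation p = 0.1, the smallest that 3 against 3 allows (0.133 after Benjamini-Hochberg adjustment over the 4 ratios), so this test cannot pass 0.05.

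**Figure D4:**
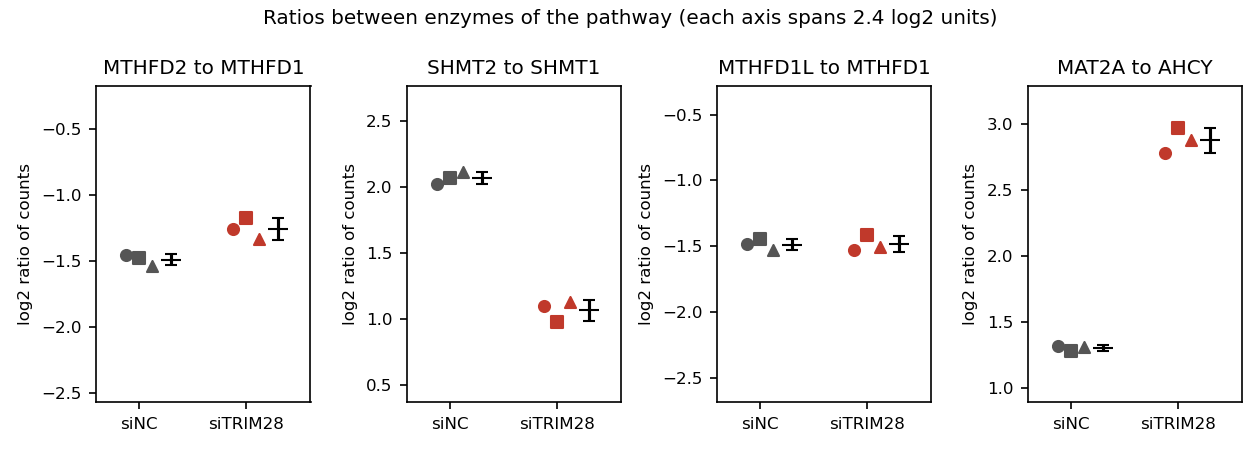
Log2 ratio of counts (vertical axes, each spanning 2.4 log2 units) for 4 pairs of genes in the 3 siNC (grey) and 3 siTRIM28 (red) libraries, with the mean ± SD in black. SHMT2 to SHMT1 differs by -1.002, MAT2A to AHCY is higher by 1.57 in siTRIM28, MTHFD2 to MTHFD1 is higher by 0.24, and MTHFD1L to MTHFD1 overlaps.

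Levels are compared between the enzymes only as CPM per kilobase of the gene length in the count table, scaled to the library totals. In siNC, TYMS (69.4 ± 1.19) and MAT2A (65.2 ± 1.53) are highest, followed by AHCY (30.4 ± 0.808), MTHFD1L (16.6 ± 0.150), MTHFD1 (13.1 ± 0.261), MTHFD2 (7.09 ± 0.129), MTR (3.08 ± 0.0444) and SHMT1 (1.71 ± 0.153), and ALDH1L2 is at 0.0589 ± 0.0176 (SD, n = 3). No neighbours in this order overlap over the 3 libraries. In siTRIM28, MAT2A is at 163 ± 2.01 and TYMS at 72.6 ± 4.35, so MAT2A takes the first place, and the other 7 keep their order. The gene length in the table joins all exons of a gene, which is long for MTHFD1 (17357 bases). With the length of 1 principal transcript instead, MAT2A (104 ± 2.44) and TYMS (101 ± 1.73) overlap in siNC, and MTHFD1 moves up to the third place at 72.6 ± 1.45.

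Beyond the 9 enzymes, 68 other genes of the pathway are taken from 9 lists by function. Of these, 57 are tested and 32 are called, 9 higher and 23 lower (56.1%, beside the 41.8% of all tested genes), with a median log2 fold change of -0.11. The lists were chosen with earlier results of these data known. The shares called in them are therefore a description and not evidence of an excess. Of 8 purine synthesis genes, 5 fall and none is called higher (edgeR). That is 62.5% called lower, beside 20.5% of all tested genes. PFAS, which converts an early glycinamide intermediate with glutamine, falls most, with 17.5 ± 0.716 CPM in siNC and 9.41 ± 0.673 in siTRIM28 (log2 fold change -0.90, adjusted p = 5.78e-06). GART and ATIC, which take up formyl groups from folate, fall by 0.33 and 0.31 on the log2 scale (adjusted p = 7.28e-05 and 0.000657). ADSL (-0.25) and PRPS2 (-0.28) complete the 5 and were named after their values were seen, and PRPS2 loses its call with DESeq2 (adjusted p = 0.0504).

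Of 8 other genes of deoxynucleotide supply, 5 fall and 2 rise (87.5% called, beside the 41.8% of all tested genes). RRM2, the small subunit of ribonucleotide reductase that is made in S phase, is at 102 ± 1.75 CPM in siNC and 48.1 ± 2.14 in siTRIM28 (log2 fold change -1.09, adjusted p = 4.08e-08, edgeR). DUT and DCTD, which supply deoxyuridylate to TYMS, fall by 0.59 and 0.57 on the log2 scale (adjusted p = 1.49e-05 and 0.000625). RRM2B (-0.39) and DCK (-0.29) also fall. RRM1, the large subunit of the reductase, rises by 0.21 (adjusted p = 0.00370) and TK1, which salvages thymidine, by 0.20 (adjusted p = 0.0309). RRM2B, DCK, RRM1 and TK1 were named after their values were seen. The call of TK1 is lost without siTRIM28 replicate 2 or any 1 siNC library, with DESeq2, with the close pairs summed and without the filter (adjusted p up to 0.172).

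Of 8 tested mitochondrial folate and glycine cleavage genes, 2 are called higher and 2 lower, a share of 50% beside the 41.8% of all tested genes. MTHFD2L, a relative of MTHFD2 with a similar reaction, has 126, 109 and 114 counts in siNC and 254, 164 and 193 in siTRIM28 (log2 fold change 0.91, adjusted p = 5.32e-05, edgeR). GLDC, the glycine decarboxylase, named after its values were seen, differs by 0.20 (adjusted p = 0.0264). SHMT2 and MTHFD2L keep their calls in all 16 settings. GLDC loses its call without siNC replicate 1 or 2 or siTRIM28 replicate 2 or 3, with DESeq2, with the close pairs summed and without the filter (adjusted p up to 0.138).

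Among 4 other tested genes listed under cytosolic folate, 1 is called higher and 1 lower (50% called, near the 41.8% of all tested genes). The lower one is MTHFSD, named after its values were seen. It has 60, 52 and 49 counts in siNC and 27, 26 and 28 in siTRIM28 (log2 fold change -0.88, adjusted p = 0.00170, edgeR). A folate reaction of its product is assumed by the list and was not tested. Of 5 tested genes of folate transport and polyglutamation, 2 fall and none is called higher (40% called, near the 41.8% of all tested genes). SLC46A1, the proton-coupled folate transporter, has 104, 85 and 95 counts in siNC and 56, 32 and 29 in siTRIM28 (log2 fold change -1.18, adjusted p = 0.000384). FPGS, which adds glutamates that keep folates in the cell, falls by 0.36 (adjusted p = 0.0101), a call lost with DESeq2 and with the close pairs summed (adjusted p up to 0.0639).

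On the methionine side, MAT2B and METTL16 are the 2 called genes among 9 tested partners and relatives of the cycle. That share of 22.2% is below the 41.8% of all tested genes. In transsulfuration, 1 of 4 tested genes rises and 1 falls (50% called, near the 41.8% of all tested genes). GCLM, the modifier subunit of the first enzyme of glutathione synthesis, is at 43.9 ± 0.367 CPM in siNC and 21.9 ± 0.982 in siTRIM28 (log2 fold change -1.002, adjusted p = 2.47e-07, edgeR). CBS, which joins homocysteine to serine, has 144, 147 and 138 counts in siNC and 316, 229 and 250 in siTRIM28 (log2 fold change 0.99, adjusted p = 2.00e-06), but its value is uncertain because the genome annotation also holds a near-identical copy, CBSL.

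Of 8 tested genes of methionine salvage and polyamine synthesis, 4 fall and 2 rise (75% called, beside the 41.8% of all tested genes). In the salvage route ADI1 (-0.53) and ENOPH1 (-0.39) fall and APIP rises by 0.39 in log2 (adjusted p = 0.000115, 0.000875 and 0.00247, edgeR). In polyamine synthesis, which consumes S-adenosylmethionine, AMD1 (-0.29) and SRM (-0.28) fall and SMS rises by 0.18. The last 3 were named after their values were seen, and SRM loses its call without siNC replicate 3 (adjusted p = 0.0515). In serine synthesis, PHGDH, the first enzyme, differs by 0.19 (adjusted p = 0.00504) and PSPH, the last, by -0.36 (adjusted p = 0.0368). PHGDH loses its call without siNC replicate 2 and with the close pairs summed (adjusted p up to 0.0808). PSPH loses it without siNC replicate 1 or 3 or siTRIM28 replicate 2 or 3, with DESeq2, with the close pairs summed and with upper-quartile scaling (adjusted p up to 0.135).

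**Figure D5:**
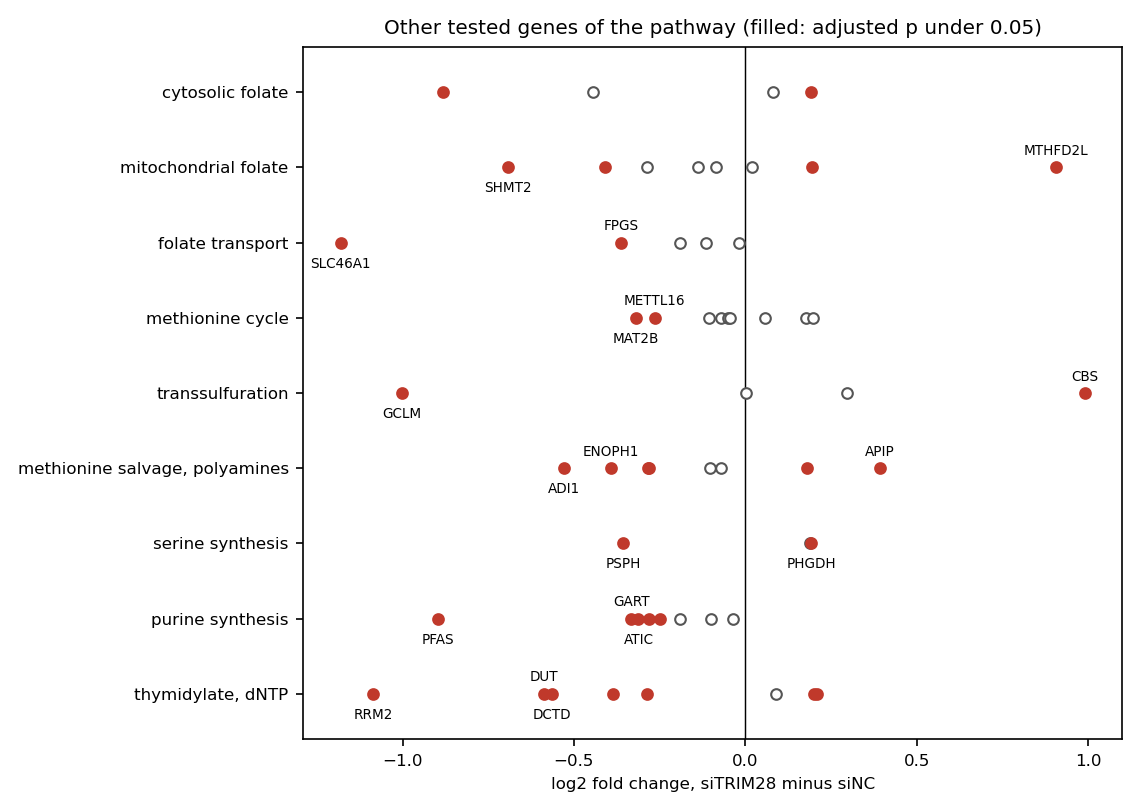
Log2 fold change, siTRIM28 minus siNC (horizontal axis), of the 57 tested other genes of the pathway, 1 point per gene in 9 rows by function. Filled red points have an adjusted p under 0.05, and at most 3 called genes per row that average at least 50 counts are named. The purine, folate transport and methionine cycle rows hold called genes only on the lower side, with SLC46A1 at -1.18 and PFAS at -0.90.

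A list of 5 transcription factors known to act on genes of this pathway holds 5 called genes, beside 41.8% called over all tested genes, and 2 of the 5 calls are lost in some settings. This list too was chosen with earlier results of these data known, so its share called is only a description. ATF4, the effector of amino acid and endoplasmic reticulum stress, has 2625, 2591 and 2257 counts in siNC and 4242, 3313 and 3273 in siTRIM28, a rise of 0.64 in log2 (adjusted p = 1.10e-06, edgeR). MYC, which has 1492, 1496 and 1510 counts in siNC and 872, 755 and 758 in siTRIM28, falls by 0.81 (adjusted p = 3.79e-07). TFEB, of lysosome and autophagy genes, falls by 0.80 (adjusted p = 0.00135), and E2F1, of S-phase genes, by 0.40 (adjusted p = 0.0125). NFE2L2, of oxidative stress genes, differs by -0.21 (adjusted p = 0.0148). The call of E2F1 is lost without siNC replicate 1 (adjusted p = 0.0689), and that of NFE2L2 without siNC replicate 2 or siTRIM28 replicate 2 and with the close pairs summed (adjusted p up to 0.163).

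The promoter windows of 8 of the 9 enzymes, 250 bases before to 50 bases after the start (RefSeq, GRCh38.p14, 14 windows), are searched on both strands for 4 motifs of these factors. CACGTG, the E-box of MYC and TFEB, reads the same on both strands and is found in MTHFD1 and MTHFD1L. It is in 7.26% of all 35116 promoter windows and in at least 1 window of 8.77% of 27305 genes. TGATGNAA, the ATF4 element, is found in MTHFD1L and in 3.62% of all windows (4.46% of genes). TGACNNNGC, the core of the NFE2L2 element, is found in MTHFD2 and in 13.3% of all windows (16.1% of genes). TTTCGCGC, an E2F site, is in none of the 14 and in 0.515% of all windows (0.630% of genes). The stretches of 60 bases that hold the E-box are shown because they carry letters of a factor that falls (MYC) and, in MTHFD1L, of one that rises (ATF4), while neither gene is called. Both are on the plus strand, 5′ to 3′, with the motifs in capitals, MTHFD1 from chr14:64388328-64388387 and MTHFD1L from chr6:150866322-150866381.
MTHFD1: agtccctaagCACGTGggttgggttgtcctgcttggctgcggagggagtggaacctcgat
MTHFD1L: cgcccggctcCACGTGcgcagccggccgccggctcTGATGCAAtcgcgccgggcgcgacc
No window of MAT2A, the enzyme with the largest change, holds any of the 4 motifs. A match or its absence in these windows says nothing on whether a factor is bound.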

How the data were processed

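Per the labels, poly(A) RNA of T24 cells is read from stranded libraries, 3 siNC and 3 siTRIM28. The submitters' processing notes name fastp 0.23.1, STAR 2.7.6a, featureCounts and GRCh38, and the strand setting and the handling of reads with several matches are not given in the sources used here. The authors deposited whole-number counts per gene with gene lengths, and these counts are the only values used. A second deposited table holds normalized values (RPKM) and fold changes of 1092 genes the authors selected, and is not used.

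The members and gene lists were chosen with earlier results of these data known. The 18474 genes that reach 10 counts in 3 or more of the 6 libraries are fitted with edgeR 4.0.16 (R 4.3.3, TMM scaling, quasi-likelihood test, siTRIM28 against siNC) and adjusted by Benjamini-Hochberg over all of them. Calls have an adjusted p under 0.05. CPM are TMM-scaled unless stated otherwise, and errors are SD over 3 libraries. The biological coefficient of variation shared by all genes is 0.0733, and the script was tested on simulated counts. The simulation used independent libraries and changes larger than those of SHMT1, MTHFD2 and AHCY. It therefore checks the code and not these calls. Ratios use a prior count of 0.5 and an exact permutation test. Genes named are the members, TRIM28, genes of the ratios, the 5 regulators, the 3 genes most like MAT2A and part of the overlapping genes. Of each list, up to 3 called genes with at least 50 mean counts and the largest change are named. Any other is said to be named after its values were seen. A few list members are counted but not reported here by name. Alternatives are other scalings, DESeq2 1.42.0, limma-voom 3.58.1, other filters, a stricter threshold, a replicate block, leaving out each library and summing the close pairs.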

Additional observations from a re-analysis of the deposited data

How the results depend on the processing

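The number of genes called ranges from 5393 (adjusted p under 0.01) to 8252 over 16 alternatives, and is 5878 with DESeq2 and 6367 to 8252 with 1 library left out. Of the 9 enzymes, the count of called ones falls from 4 to 2 with DESeq2, with the close pairs summed and at an adjusted p under 0.01, and is 2 to 5 with 1 library left out. The count called higher is 1 with DESeq2 and at an adjusted p under 0.01, and 1 to 4 with 1 library left out, and the count called lower is 0 with the close pairs summed. The log2 fold change of SHMT1 is 0.30 with DESeq2, 0.30 at the stricter threshold, where the call is lost by construction, and 0.25 to 0.37 with 1 library left out. That of MTHFD2 is 0.18 with DESeq2, 0.18 with the close pairs summed, 0.18 at the stricter threshold and 0.15 to 0.20 with 1 library left out. AHCY is at -0.24 with the close pairs summed, which leaves 2 samples a group. TYMS is at 0.0121 to 0.0915 with 1 library left out. MTR turns to 0.0090 with upper-quartile scaling. The log2 difference of the MTHFD1L to MTHFD1 ratio is -0.0287 to 0.0265 with 1 library left out, and turns below 0 without siNC replicate 3 (-0.0163) or siTRIM28 replicate 2 (-0.0287). Why these values move was not tested, beyond the fewer samples or stricter threshold that the settings bring. MAT2A keeps its call throughout.

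With the replicate block 7910 genes are called, MAT2A is at 1.30, and no call of the 8 tested enzymes changes. Same-numbered libraries deviate together with r of 0.0523, -0.0118 and 0.0374, and differently numbered ones with r of -0.0655 to 0.0387. With 3 libraries a group, these small values cannot show whether the numbers mark pairs. Genes under about 10 counts, such as ALDH1L2, are limited by depth, and the order of levels per kilobase depends on the gene length used.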

Other observations

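MTAP, which starts methionine salvage by cleaving methylthioadenosine, is nearly absent, a value seen after the data were examined. It has 1, 3 and 1 counts in siNC and 0 in each siTRIM28 library, where 0 of 37566766 counts allows up to 0.0799 CPM over the group (counting error only). CDKN2A, next to it on chromosome 9, has 1, 1 and 0 counts in siNC and 0, 1 and 0 in siTRIM28, and CDKN2B has 0, 0 and 1 counts in siNC and 0, 0 and 1 in siTRIM28. No fold is given for these 3 genes, since both groups are near the limit of detection.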
